A study of Mus musculus with 12 samples.

Results

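The ABC efflux transporters of xenobiotics are membrane pumps that use ATP to move drugs, toxins and conjugated metabolites out of cells. The genes followed here are Abcb1a, Abcb1b, Abcc1, Abcc2, Abcc3, Abcc4 and Abcg2. They were found by gene symbol in the array annotation, and 8 probe sets of 22626 tested ones stood for 6 of the 7 genes. Abcb1a and Abcc1 had 2 probe sets each, the other 4 genes had 1 each, and no probe set of the annotation used carried the symbol Abcc4, whose expression is not analysed here.

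The arrays measured RNA of the scraped epithelial layer of the colon of male C57BL/6 mice aged 6 to 8 weeks. There were 4 groups of 3 arrays, namely POR-null mice on quercetin, POR-null mice on control diet, wild type mice on quercetin and wild type mice on control diet. Each array received pooled RNA of 3 mice, so a replicate is a pool and a group holds 9 mice. All groups had 14 days on a soya-free powdered diet and then 24 hours on that powder, in the quercetin groups with 6200 ppm of the plant flavonol quercetin (7 mg for each mouse). POR is the reductase that supplies electrons to microsomal cytochromes P450. The labels do not say in which cells the POR-null line lacks it, whereas the line of this kind known from the literature loses it in hepatocytes, which would leave the colon with the gene. Whether the colon of these mice lacked it is not analysed here.

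In the gut, P-glycoprotein (made from Abcb1a and Abcb1b in rodents), Abcc2 and Abcg2 sit in the apical membrane and send their cargo to the lumen, while Abcc1 and Abcc3 sit in the basolateral membrane and send it towards the blood. Quercetin is conjugated with glucuronic acid and sulfate in enterocytes, and such conjugates are known cargo of Abcc2, Abcc3 and Abcg2. The receptors PXR, CAR and AHR and the factor NRF2 are known to raise several of these genes in liver and gut. The design therefore asks whether a day of dietary quercetin, the POR genotype, or both together went with other levels of the pumps' transcripts.

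The windows upstream of 3 of the genes are shown because they carry the contrasts that follow: Abcb1a and Abcb1b are neighbouring copies, 49.6 kb apart on chromosome 5, of which the probe sets gave very different signal, and Abcc2 had the largest difference on quercetin. Each is the 250 bases before an annotated transcription start in RefSeq on GRCm38.p6, printed 5′ to 3′. Capitals mark matches on either strand to the antioxidant element TGACNNNGC, the CCAAT box CCAAT or the GC box GGGCGG. The AHR element core GCGTG was searched as well and had 0 matches in these 3 windows.
Abcb1a (chr5:8566841-8567090, plus strand): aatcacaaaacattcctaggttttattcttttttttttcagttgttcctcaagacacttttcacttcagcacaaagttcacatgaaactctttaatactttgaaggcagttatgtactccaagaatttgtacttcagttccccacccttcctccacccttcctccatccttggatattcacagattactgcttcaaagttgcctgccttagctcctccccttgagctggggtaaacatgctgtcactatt
Abcb1b (chr5:8797897-8798146, plus strand): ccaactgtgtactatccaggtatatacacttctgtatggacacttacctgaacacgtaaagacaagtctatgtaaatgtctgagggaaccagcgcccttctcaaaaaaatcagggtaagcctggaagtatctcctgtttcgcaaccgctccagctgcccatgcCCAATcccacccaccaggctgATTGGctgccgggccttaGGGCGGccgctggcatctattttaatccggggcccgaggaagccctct
Abcc2 (chr19:43782058-43782307, plus strand): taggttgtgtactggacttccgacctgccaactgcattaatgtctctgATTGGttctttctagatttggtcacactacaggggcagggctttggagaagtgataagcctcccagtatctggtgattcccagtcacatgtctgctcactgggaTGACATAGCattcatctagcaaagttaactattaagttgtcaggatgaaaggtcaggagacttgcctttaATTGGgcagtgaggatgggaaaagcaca
The Abcb1b window held 2 CCAAT boxes and 1 GC box. The Abcb1a window held 0 matches to any of the 4 motifs, with 40.4% G and C against 52.8% for Abcb1b. The Abcc2 window held 1 antioxidant element, starting at position -98 from the start, and 2 CCAAT boxes. Among 32851 windows of the same length, 10.2% held the antioxidant element, 33.8% the CCAAT box, 32.7% the GC box and 28.2% the AHR element core. Of the other members, Abcg2 had 3 annotated starts and Abcc4 had 2, while Abcc1 and Abcc3 had no entry. In the Abcg2 windows the only matches were GC boxes, 2 at the second start and 4 at the third. Each of the 2 Abcc4 windows held 1 antioxidant element, and 1 of them also held 2 AHR element cores and 3 GC boxes. A match describes letters and not a bound site. Each of the 3 printed windows ends just before the first base of the annotated gene span, which for Abcb1a runs from 8567091 to 8748575. Which start the colon transcripts use was not tested, and any starts inside the spans of these 3 genes were not searched. The matches hold for these windows only, and the Abcb1a window is not shown to be its promoter in colon.

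No member passed the test in any comparison. By limma, with p adjusted over all 22626 probe sets, 0 of 8 member probe sets passed for quercetin in POR-null mice, quercetin in wild type mice, POR-null against wild type on either diet, the interaction of diet and genotype, or either average. The background was the same, with 0% of all probe sets called in each of these 7 comparisons. For genotype on control diet, arrays of the same replicate number were taken as pairs from their values, since the labels give no pairing. A fit of these 6 arrays with the replicate number as a block, chosen after seeing the data, called 47 of 22626 probe sets and 0 of the 8 members. Apart from the block alternatives, all values given for this comparison come from fits without pairs. At an unadjusted p under 0.05 there were 2 of 8 members for quercetin in POR-null mice (2.82% of all probe sets), 1 of 8 for quercetin in wild type mice (5.15%), 1 of 8 for genotype on control diet (6.79%), 0 of 8 for genotype on quercetin (2.39%), 0 of 8 for the interaction (4.74%), 1 of 8 for the quercetin average (3.25%) and 0 of 8 for the genotype average (4.18%). Those single results belonged to Abcc2 and Abcb1b, the members of the lowest signal.

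**Figure D1:**
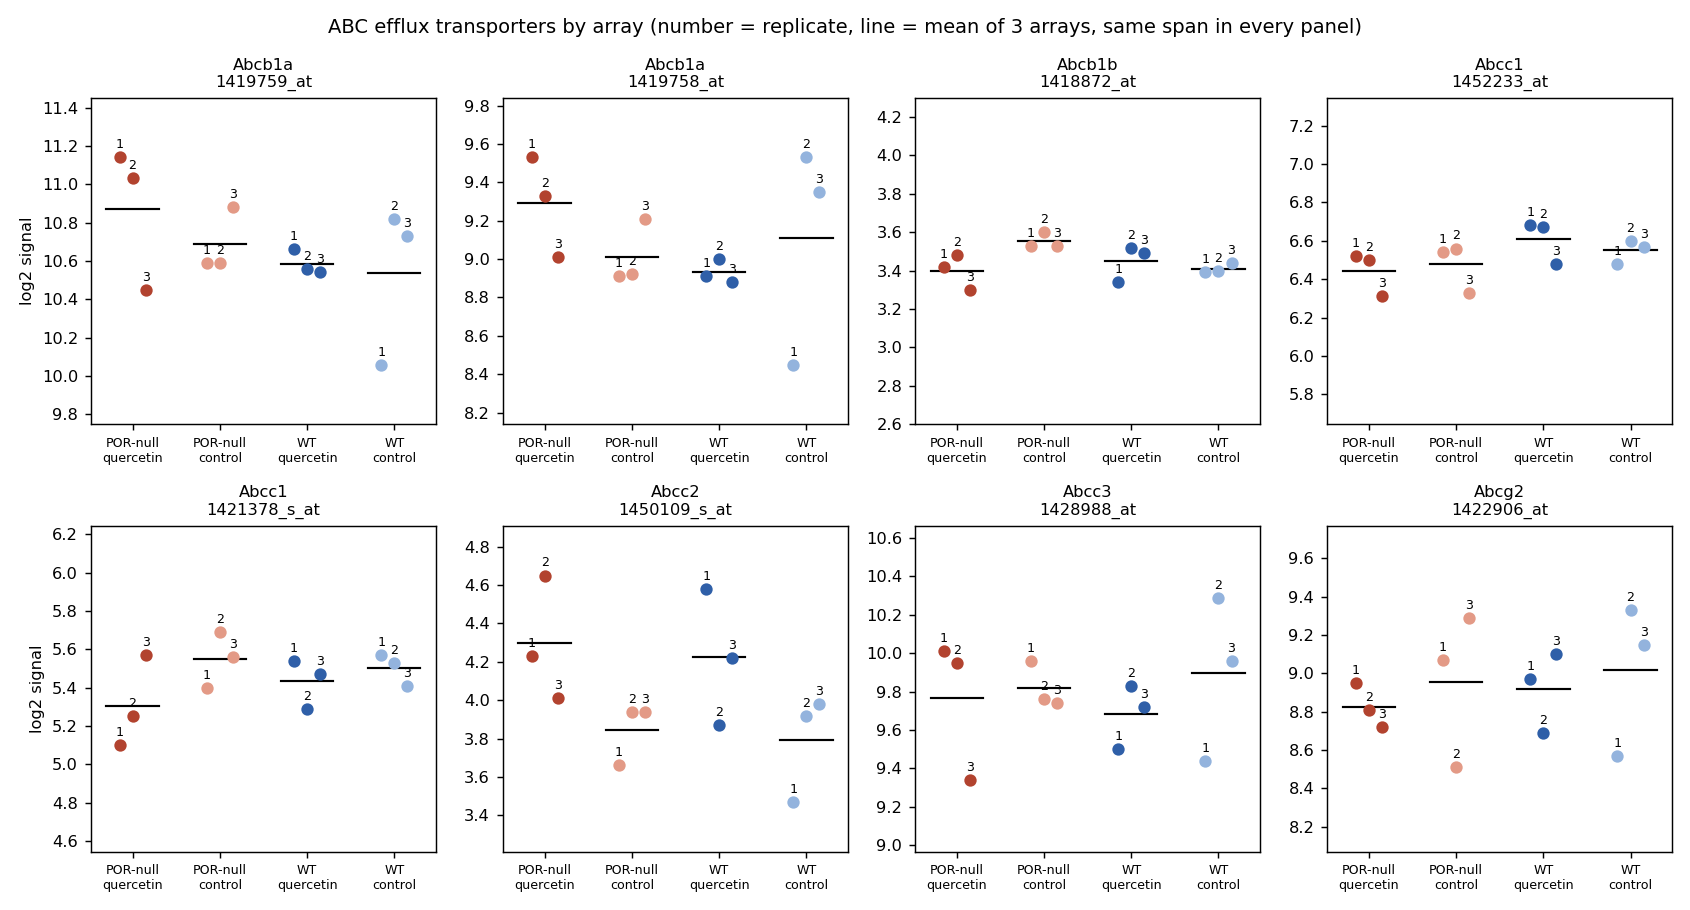
Log2 signal (y axis) of the 8 member probe sets on the 12 arrays, by group (x axis); points are arrays numbered by replicate, lines are means of 3 arrays, and each panel spans the same number of log2 units. Abcc2 was higher in most quercetin arrays, and wild type control array 1 was lowest for both Abcb1a probe sets, at 10.06 and 8.45, and for Abcc2, at 3.47.

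Abcc2 encodes MRP2, the apical pump of glucuronide, sulfate and glutathione conjugates. Its log2 signal was 4.23, 4.65 and 4.01 in POR-null mice on quercetin, against 3.66, 3.94 and 3.94 in POR-null mice on control diet. The 3 quercetin arrays lay above all 3 control arrays, where 6.75% of all probe sets had no overlap in this comparison. Wild type mice had values of 4.58, 3.87 and 4.22 on quercetin and 3.47, 3.92 and 3.98 on control diet. Here 2 of 3 quercetin arrays lay above every control array, and quercetin array 2 lay within the control range (9.31% of all probe sets had no overlap in wild type mice).

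The Abcc2 difference was 0.45 (SE 0.19, 95% interval 0.03 to 0.87) in POR-null mice, or 1.37-fold, and 0.43 (SE 0.19, interval 0.01 to 0.85), or 1.35-fold, in wild type mice (n = 3 arrays per group). The unadjusted p values by limma were 0.038 and 0.0445, and the adjusted ones 1 and 0.957. Averaged over genotypes Abcc2 stood at 4.26 on quercetin and 3.82 on control diet, a difference of 0.44 (SE 0.14, interval 0.14 to 0.74), by limma with unadjusted p = 0.00692, place 72 of 22626 probe sets, and adjusted p = 0.998. Without 4 arrays of high smooth muscle or acinar signal, named below, this average was 0.26, by limma with unadjusted p = 0.134. The response differed between genotypes by 0.02 (SE 0.28, interval -0.58 to 0.61), an interval that holds differences larger than the response itself. Between POR-null and wild type mice Abcc2 differed by 0.07 (SE 0.19) on quercetin and by 0.06 (SE 0.19) on control diet, and each of these turned negative with 1 array left out: to -0.10 on quercetin without POR-null array 2, and to -0.10 on control diet without wild type array 1. By mean, POR-null quercetin (4.30) and wild type quercetin (4.22) stood above POR-null control (3.85) and wild type control (3.79), with overlap of arrays between each group and the next.

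Single arrays carried much of the Abcc2 difference. In wild type mice it was 0.26 without quercetin array 1, 0.27 without control array 1 and 0.28 with array weights, and in POR-null mice it was 0.27 without quercetin array 2. The sign stayed positive in both genotypes with any single array left out, from 0.27 to 0.59 in POR-null mice and from 0.26 to 0.61 in wild type mice. The signal was also low: Abcc2 lay below the lower quartile of its array on all 12 arrays, between the 5.05th and the 23.4th percentile. The 102 probe sets of genes not expected in colon, such as olfactory receptors and lens crystallins, had a median of 4.55 and quartiles of 3.79 and 5.49. Their 5th and 95th percentiles were 3.15 and 6.36, and Abcc2 ran from 3.47 to 4.65. The table has no detection calls. The suffix of this Abcc2 probe set, s_at, is the maker's mark for probes that may bind more than 1 transcript.

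Genes of other tissues varied between arrays in the same comparisons. In POR-null mice, the 8 measured genes of pancreatic acinar cells all had higher means on quercetin (0 passed, list means of single arrays from 6.42 to 10.15 on quercetin and from 6.07 to 6.15 on control diet), and POR-null quercetin array 2, with the highest acinar mean of 10.15, had the highest Abcc2. In wild type mice it was the other way round: all 8 acinar genes were lower on quercetin (0 passed, list means of single arrays from 6.11 to 7.20 on quercetin and from 6.29 to 9.07 on control diet), and control array 1, with 9.07, had the lowest Abcc2. Small intestine genes, a tissue known for high Abcc2, had their highest mean, 9.93, in wild type control array 1 and their lowest, 7.92, in wild type quercetin array 1, the arrays of the lowest and the second highest Abcc2. In POR-null mice 6 of 7 small intestine genes had higher means on quercetin (median 0.37, 0 passed). POR-null quercetin array 2, with the highest Abcc2, had the highest small intestine mean of the POR-null arrays, 9.42. Smooth muscle genes ran higher on quercetin in wild type mice, 10 of 10 genes (0 passed), with a median difference of 2.24, and in POR-null mice by a median of 0.24. The part of these tissues in the Abcc2 values was not tested. Without the 4 arrays of high smooth muscle or acinar signal (POR-null quercetin array 2, wild type quercetin array 3 and wild type control arrays 1 and 2) the Abcc2 difference was 0.27 in POR-null mice, with an unadjusted p = 0.18 by limma. The arrays left out include those of the highest and the lowest Abcc2, so these values do not bear on the tissues apart from Abcc2 itself. In wild type mice, with 1 control array left and taken to vary like the other groups, it was 0.24, with an unadjusted p = 0.357 by limma.

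**Figure D2:**
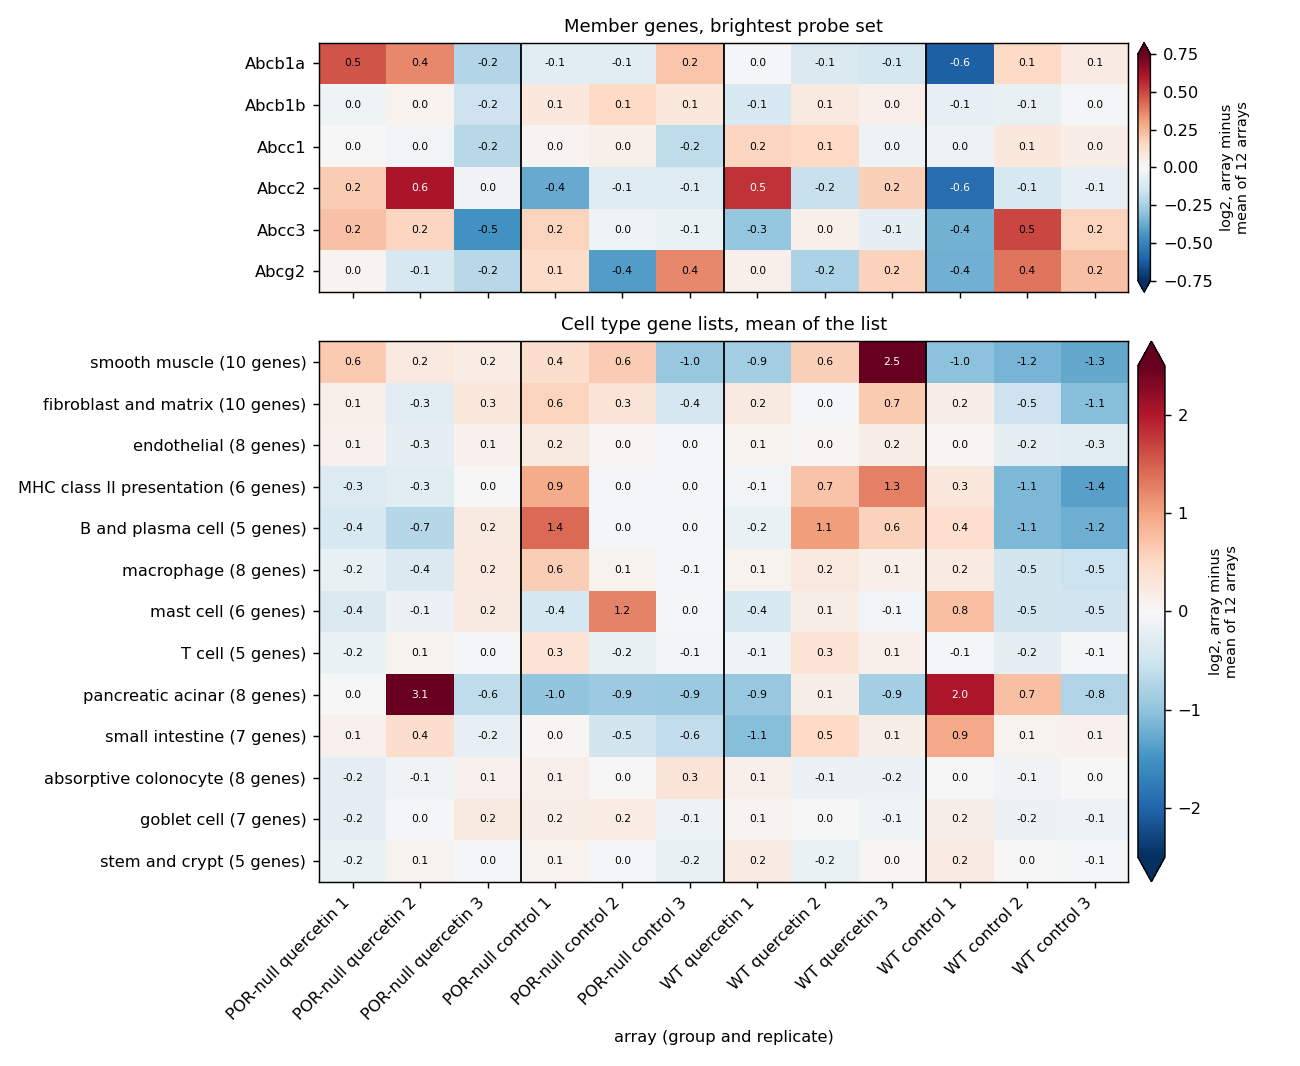
Log2 deviation of each array (columns, by group and replicate) from the mean of the 12 arrays, for the 6 measured member genes (upper map) and for 13 cell type gene lists (lower map), with a colour scale for each map. Abcc2 was high in POR-null quercetin array 2 and wild type quercetin array 1 and low in wild type control array 1, and acinar signal was high in POR-null quercetin array 2 and wild type control array 1.

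Abcb1a encodes the P-glycoprotein of the mouse gut, an apical pump of bulky hydrophobic drugs. Its brighter probe set read 11.14, 11.03 and 10.45 in POR-null mice on quercetin, against 10.59, 10.59 and 10.88 in POR-null mice on control diet. Wild type mice gave 10.66, 10.56 and 10.54 on quercetin and 10.06, 10.82 and 10.73 on control diet. POR-null quercetin arrays 1 and 2 were the highest of the 12, POR-null quercetin array 3 and wild type control array 1 were the lowest pair, and the groups overlapped in every comparison of this probe set. The group means were 10.87, 10.69, 10.59 and 10.54 in the order POR-null quercetin, POR-null control, wild type quercetin and wild type control, and neighbours in this order overlapped.

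The Abcb1a differences were 0.19 (SE 0.20, 95% interval -0.25 to 0.62) for quercetin in POR-null mice, 0.05 (SE 0.20, interval -0.38 to 0.48) for quercetin in wild type mice, 0.29 (SE 0.20, interval -0.15 to 0.72) for genotype on quercetin and 0.15 (SE 0.20, interval -0.28 to 0.58) for genotype on control diet (n = 3 arrays per group). The interaction was 0.14 (SE 0.28, interval -0.47 to 0.75). The adjusted p by limma was at least 0.916 in these 5 comparisons. With single arrays left out, quercetin in POR-null mice ran from 0.05 without quercetin array 1 to 0.40 without quercetin array 3, and genotype on quercetin from 0.15 to 0.50 without the same arrays. The dimmer probe set read 9.53, 9.33 and 9.01 in POR-null and 8.91, 9.00 and 8.88 in wild type mice on quercetin. These groups did not overlap, with a difference of 0.36 (SE 0.22) and an unadjusted p = 0.132 by limma, in a comparison where 6.82% of all probe sets had no overlap. On control diet it read 8.91, 8.92 and 9.21 in POR-null and 8.45, 9.53 and 9.35 in wild type mice.

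Both Abcb1a probe sets gave wild type control array 1 the lowest value, and the brighter one exceeded the dimmer by 1.29 to 1.75 log2 units on single arrays. They differed in sign for quercetin in wild type mice (0.05 and -0.18) and for genotype on control diet (0.15 and -0.10). Without wild type control array 1 the brighter probe set also turned to -0.19 for quercetin in wild type mice and to -0.09 for genotype on control diet. That array had the highest list means of small intestine genes (9.93) and the second highest of acinar (9.07) and mast cell genes (6.84), and their part in its low Abcb1a was not tested.

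**Figure D3:**
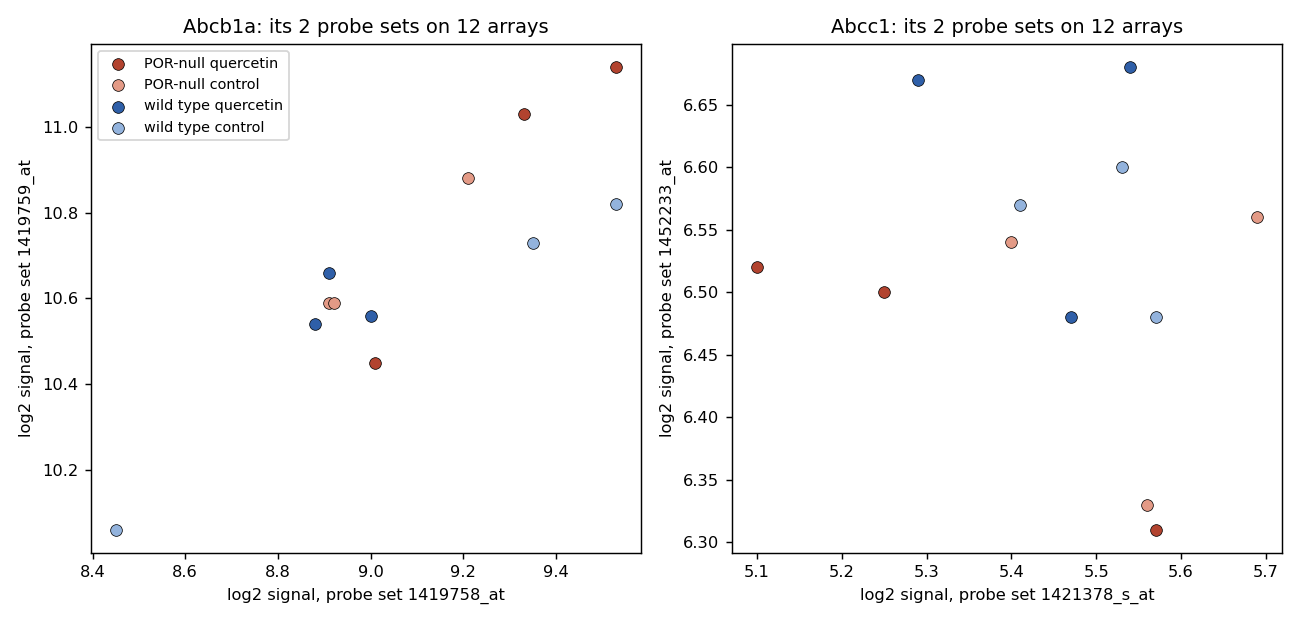
Log2 signal of the 2 probe sets of Abcb1a (left) and of Abcc1 (right), dimmer on the x axis and brighter on the y axis, with 1 point for each of 12 arrays coloured by group. Both Abcb1a probe sets were lowest in wild type control array 1, at 8.45 and 10.06, and highest in POR-null quercetin array 1, at 9.53 and 11.14. On the dimmer one wild type control array 2 also read 9.53. The Abcc1 probe sets had different arrays at their lowest and at their highest value.

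Abcb1b is the second P-glycoprotein gene of rodents and is known for expression in adrenal gland and pregnant uterus more than in gut. Its probe set read 3.42, 3.48 and 3.30 in POR-null mice on quercetin, against 3.53, 3.60 and 3.53 in POR-null mice on control diet. The wild type values were 3.34, 3.52 and 3.49 on quercetin and 3.39, 3.40 and 3.44 on control diet. All 12 values lay within 0.30 log2 units, below the lower quartile of their array and between its 3.07th and 6.74th percentile. The POR-null control arrays were the highest 3 values, and they overlapped with no other group. The lowest of them, 3.53, lay just above the highest wild type quercetin value, 3.52. For that pair of groups the share of all probe sets without overlap is not given. The difference was -0.15 (SE 0.07, 95% interval -0.30 to -0.01) for quercetin in POR-null mice. For genotype on control diet it was 0.14 (SE 0.07, interval 0.00 to 0.29), with n = 3 arrays per group. In these comparisons 6.75% and 9.67% of all probe sets had no overlap, in that order. By limma the adjusted p was 1 and 0.734. Both comparisons share the POR-null control arrays. Quercetin in wild type mice gave 0.04 (SE 0.07) and genotype on quercetin -0.05 (SE 0.07).

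Abcg2 encodes the breast cancer resistance protein, an apical pump of sulfate conjugates, urate and many drugs. It read 8.95, 8.81 and 8.72 in POR-null mice on quercetin, against 9.07, 8.51 and 9.29 in POR-null mice on control diet. Wild type mice gave 8.97, 8.69 and 9.10 on quercetin and 8.57, 9.33 and 9.15 on control diet. The highest and the lowest arrays of all 12 were control arrays, wild type array 2 at 9.33 and POR-null array 2 at 8.51, and the quercetin arrays lay between them. Quercetin differed from control diet by -0.13 (SE 0.21, 95% interval -0.58 to 0.32) in POR-null and by -0.10 (SE 0.21, interval -0.55 to 0.36) in wild type mice. POR-null differed from wild type mice by -0.09 (SE 0.21) on quercetin and by -0.06 (SE 0.21) on control diet (n = 3 arrays per group). The adjusted p by limma was at least 0.977 in these 4 comparisons. The quercetin difference turned positive in POR-null mice without control array 3 (0.04) or with array weights (0.14), and in wild type mice without control array 2 (0.06) or quercetin array 2 (0.02). The genotype difference on control diet turned positive without POR-null array 2 (0.16) or wild type array 2 (0.10). With array weights it was -0.43, by limma with unadjusted p = 0.0249 and adjusted p = 0.18.

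**Figure D4:**
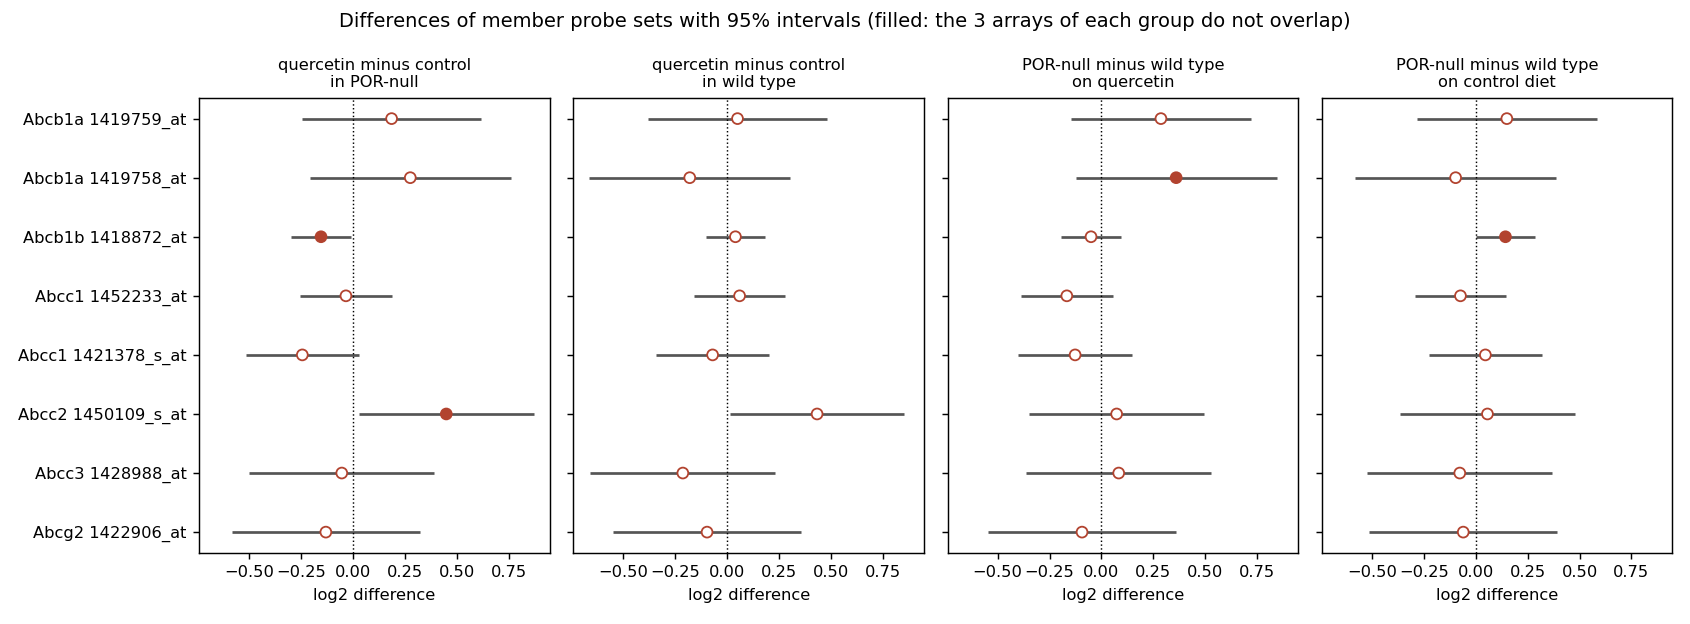
Log2 differences of the 8 member probe sets (rows) in 4 comparisons (panels), with 95% intervals of the limma fit as lines; filled points mark comparisons in which the 3 arrays of each group do not overlap. The intervals that leave out 0 are those of Abcc2 for quercetin in both genotypes and of Abcb1b for quercetin in POR-null mice and genotype on control diet, and the intervals of Abcb1a, Abcc1, Abcc3 and Abcg2 hold 0 throughout.

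Abcc3 encodes MRP3, the basolateral pump of glucuronides and bile acids. It read 10.01, 9.95 and 9.34 in POR-null mice on quercetin, against 9.96, 9.76 and 9.74 in POR-null mice on control diet. The wild type arrays gave 9.50, 9.83 and 9.72 on quercetin and 9.44, 10.29 and 9.96 on control diet. The lowest values, 9.34 in POR-null quercetin array 3 and 9.44 in wild type control array 1, stood in groups that also held high ones, and all groups overlapped. Quercetin differed from control diet by -0.05 (SE 0.21, 95% interval -0.50 to 0.39) in POR-null and by -0.21 (SE 0.21, interval -0.66 to 0.23) in wild type mice, with adjusted p by limma of 1 and 0.966 (n = 3 arrays per group). In wild type mice the difference was -0.44 without control array 1 and -0.02 without control array 2. POR-null differed from wild type mice by 0.08 (SE 0.21) on quercetin and by -0.08 (SE 0.21) on control diet. Single arrays set these signs too: quercetin in POR-null mice gave 0.16 without quercetin array 3, genotype on control diet gave 0.12 without wild type array 2, and genotype on quercetin gave -0.04 without POR-null array 1.

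Abcc1 encodes MRP1, the basolateral pump of glutathione conjugates and leukotriene C4. Its brighter probe set read 6.52, 6.50 and 6.31 in POR-null mice on quercetin, against 6.54, 6.56 and 6.33 in POR-null mice on control diet. In the wild type, the values were 6.68, 6.67 and 6.48 on quercetin and 6.48, 6.60 and 6.57 on control diet. All 12 values lay within 0.37 log2 units, and all groups overlapped. Quercetin differed from control diet by -0.03 (SE 0.10, 95% interval -0.25 to 0.19) in POR-null and by 0.06 (SE 0.10, interval -0.16 to 0.28) in wild type mice (n = 3 arrays per group). Genotype differences were -0.17 (SE 0.10) on quercetin and -0.07 (SE 0.10) on control diet, and the adjusted p by limma was at least 0.922 in these 4 comparisons. Without POR-null quercetin array 3 the quercetin difference in POR-null mice was 0.03. The dimmer probe set, marked s_at, ran from 5.10 to 5.69 and gave -0.24 (SE 0.13) and -0.07 (SE 0.13) for quercetin in POR-null and wild type mice and -0.13 and 0.05 for genotype on quercetin and on control diet. In wild type mice on quercetin, and for genotype on control diet, its sign differed from that of the brighter probe set.

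Over the 6 measured genes the median difference was -0.04 for quercetin in POR-null mice, beside 0.01 over all probe sets, and 2 of 6 genes were higher without regard to the test (52% of all probe sets). For quercetin in wild type mice the median was 0.04, beside 0.00 over all probe sets, and 4 of 6 genes were higher (50.3%). Over all 8 member probe sets that median was -0.015, with 4 of 8 higher, so its sign rests on taking 1 probe set for each gene. For genotype on quercetin the median was 0.01, beside -0.01 over all probe sets. Abcc2 spanned 1.18 log2 units over the 12 arrays, Abcb1a 1.08, Abcc3 0.95 and Abcg2 0.82, where the quartiles of the span over all probe sets were 0.35 and 0.60. In bulk tissue, fewer cells that make a transcript and less of it per cell cannot be told apart.

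Among the members, Abcb1a and Abcc3 had the most like pattern over the 12 arrays (Pearson r = 0.65, Spearman rho = 0.68, n = 12 arrays), then Abcb1a and Abcc2 (r = 0.61, rho = 0.46) and Abcc3 and Abcg2 (r = 0.53, rho = 0.43), out of 15 gene pairs whose r started at -0.18. These arrays share tissue mix and normalization, and the values are descriptions. Of 7300 genes with signal at or above the median, the nearest to Abcc3 were Abcb6, an ABC transporter of porphyrins (r = 0.97), the lysosomal lipase Lipa (r = 0.95) and Ndrg1, a gene induced in differentiation and hypoxia (r = 0.94). Abcb6 read 7.77, 7.60 and 7.05 in POR-null quercetin arrays, 7.58, 7.29 and 7.34 in POR-null control arrays, 7.19, 7.50 and 7.38 in wild type quercetin arrays and 7.17, 7.94 and 7.50 in wild type control arrays. Abcb6, like Abcc3, was thus lowest in POR-null quercetin array 3 and highest in wild type control array 2, and without the 2 arrays farthest from the median of Abcc3 the r with it was 0.93.

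**Figure D5:**
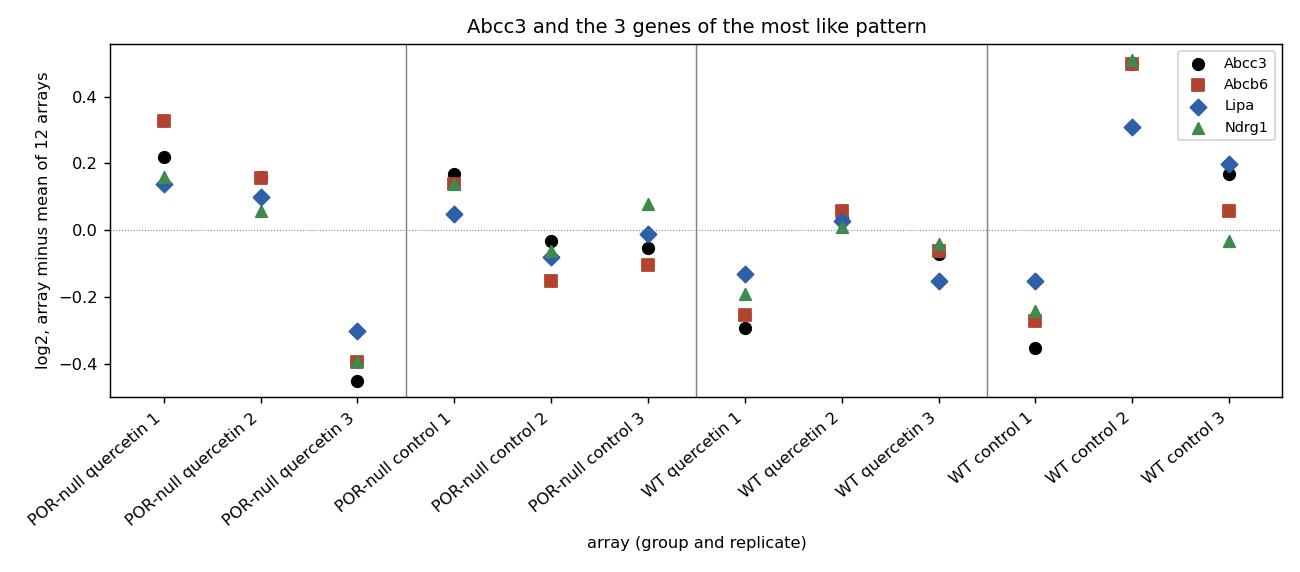
Log2 deviation from the mean of the 12 arrays (y axis) of Abcc3 and of the 3 genes with the highest r to it, on each array by group and replicate (x axis). The 4 genes were low together in POR-null quercetin array 3 and wild type control array 1, where Abcc3 read 9.34 and 9.44, and high in wild type control array 2, where it read 10.29.

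For Abcb1a the nearest patterns were those of Fibp (r = 0.94), Vps37b (r = 0.92), a part of the ESCRT-I sorting complex, and Erbin (r = 0.88), a scaffold protein of the basolateral membrane. For Abcg2 they were Sptlc2 (r = 0.90), a subunit of serine palmitoyltransferase, Cdhr5 (r = 0.86), a cadherin of the microvilli, and Nrep (r = 0.86). Abcc2 had Miip (r = 0.82), Itm2a (r = 0.82) and Zfp362 (r = 0.81) nearest, and without the 2 arrays farthest from its median r was 0.88, 0.57 and 0.69 in that order. Abcb1b was nearest to Nme1 (r = 0.91), Zcchc17 (r = 0.89) and Cux1 (r = 0.85), and Abcc1 to Isca1 (r = 0.88), Coa5 (r = 0.85) and Pdf (r = 0.85), also over 12 arrays. Without the 2 arrays farthest from the member's median, r was 0.67 for Cux1, 0.71 for Isca1, 0.62 for Coa5 and 0.54 for Pdf. All these genes were picked as the highest r among 7300, so high values come in part from the picking. Abcb1b and Abcc2 lay below the lower quartile of signal on all 12 arrays, so their patterns are those of low signal.

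The wider ABC family gave no call either. Of 20 measured transporters of subfamilies B, C, D and G outside the members, 0 passed by limma in any comparison. Abcb10, a mitochondrial transporter used in haem synthesis, had the smallest unadjusted p, with 6.44 ± 0.18 on quercetin and 6.87 ± 0.16 on control diet in wild type mice (difference -0.43, SE 0.17, SD over n = 3 arrays, adjusted p = 0.954). In the same mice the sterol transporter Abcg8 differed by 0.28 (SE 0.13) and the nucleotide pump Abcc5 by -0.18 (SE 0.09), while Abcg4, a sterol transporter of brain, differed by 0.23 (SE 0.10) between POR-null and wild type mice on quercetin. The list was higher in 17 of 20 genes on quercetin in POR-null mice (median 0.08) and in 7 of 20 in wild type mice (median -0.09), beside 52% and 50.3% of all probe sets, without regard to the test. Its means on single arrays ran only from 6.16 to 6.37, and the part of tissue mix in them was not tested. Of 7 genes of subfamily A 0 passed. The cholesterol exporter Abca1 had 5.58 ± 0.14 in POR-null and 6.00 ± 0.23 in wild type mice on quercetin (difference -0.42, SE 0.17), and the lipid transporter Abca3 differed by 0.33 (SE 0.13) for quercetin in wild type mice. Abca7, a lipid transporter, differed by 0.23 (SE 0.11) between POR-null and wild type mice on control diet, and Abca4, known from photoreceptors, by 0.14 (SE 0.12) on quercetin.

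The receptors and factors known to control efflux pumps did not pass in any comparison, 0 of 18. The dioxin receptor Ahr had 6.04 ± 0.08 in POR-null and 5.63 ± 0.35 in wild type mice on control diet (difference 0.42, SE 0.19, SD over n = 3 arrays, limma adjusted p = 0.734). Hif1a, the hypoxia factor, differed by 0.55 (SE 0.24) in that comparison, Pparg, a lipid receptor, by -0.31 (SE 0.13) for quercetin in wild type mice, and the GC box factor Sp1 by -0.48 (SE 0.17) for quercetin in POR-null mice. The list median was 0.01 for quercetin in each genotype.

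Of the listed carriers of drugs and conjugates 0 of 14 passed, and of conjugating enzymes, whose products are cargo of the pumps, 0 of 25. The peptide carrier Slc15a1 had 6.81 ± 0.28 in POR-null and 6.05 ± 0.57 in wild type mice on control diet (difference 0.76, SE 0.25, SD over n = 3 arrays, limma adjusted p = 0.71). In this comparison the bile acid carrier Slc10a2 had 3.59 ± 0.09 in POR-null and 4.61 ± 1.22 in wild type mice (difference -1.02, SE 0.43), with 10 of its 12 values below the lower quartile of the array. On the same diet Slc47a1, a cation extruder, differed by -0.42 (SE 0.18) between the genotypes. The organic anion carrier Slco1a6, with as many values below the lower quartile as Slc10a2, differed by -0.19 (SE 0.09) there. The glutathione transferase Gstm3 had 8.57 ± 0.13 in POR-null and 9.03 ± 0.09 in wild type mice on control diet (difference -0.46, SE 0.13, adjusted p = 0.71 by limma), Gsta4 differed by -0.61 (SE 0.21) and Mgst2 by -0.27 (SE 0.12). The sulfotransferase Sult2b1 differed by 0.42 (SE 0.16) between POR-null and wild type mice on quercetin. Conjugating enzymes were higher on quercetin in 19 of 25 cases in POR-null mice (median 0.08) and in 3 of 25 in wild type mice (median -0.17), beside 52% and 50.3% of all probe sets. Between POR-null and wild type mice on control diet 22 of 25 were lower (median -0.22), beside a median of -0.01 over all probe sets. This comparison and quercetin in wild type mice subtract the same wild type control arrays. For genotype on control diet the 10 smooth muscle genes (median 1.37) were all higher. The 7 small intestine genes (median -0.65) and the 8 acinar genes (median -1.7) were all lower there, with 0 passed. In wild type mice on quercetin the 10 smooth muscle genes (median 2.24) and the 6 MHC class II genes (median 1.54) were all higher and the 7 small intestine genes (median -0.51) all lower, with 0 passed. The part of these tissues in the values of the carriers and enzymes was not tested.

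Of 10 scaffold and traffic partners that hold pumps in the apical membrane 0 passed. Moesin (Msn), an actin linker also abundant in immune and endothelial cells, had 7.63 ± 0.70 on quercetin and 6.29 ± 0.59 on control diet in wild type mice (difference 1.34, SE 0.44, SD over n = 3 arrays, adjusted p = 0.952 by limma). All 6 MHC class II genes and all 10 smooth muscle genes were higher in that comparison too (0 passed), with list means from 7.81 to 9.13 on quercetin and from 6.52 to 8.16 on control diet for the MHC class II genes, and their part in it was not tested. The epithelial linkers Slc9a3r1 and Ezr differed by 0.26 (SE 0.11) and 0.26 (SE 0.12) between POR-null and wild type mice on quercetin, and the fusion protein Stx3 by 0.21 (SE 0.11) on control diet.

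As to the arrays as a whole, medians ran from 5.90 to 5.98 log2 units and 0 pairs of arrays held identical values. Genes of absorptive colonocytes (list means from 11.20 to 11.75) and goblet cells (from 11.94 to 12.39) were bright on every array. Smooth muscle genes ran from 5.92 in wild type control array 3 to 9.74 in wild type quercetin array 3.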

How the data were processed

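Colon RNA of 12 pools was measured on Affymetrix 430A arrays, per the labels. The deposited values are log2 signal made by the authors; MAS5 and RMA are both listed in the submitters' processing notes, with neither role nor version, and nothing was renormalized here. The log2 scale was taken from the values, which run from 2.70 to 14.09, above 11.1, the natural log of the largest 16-bit count. After removal of 64 control probe sets, no signal filter was set and 22626 probe sets were tested, 20380 with 1 gene symbol. A gene is represented by its probe set of the highest mean. One fit of 4 group means over all 12 arrays was made with limma 3.58.1 in R 4.3.3 (lmFit, eBayes with trend), with two-sided moderated tests on 12.9 degrees of freedom, Benjamini-Hochberg adjustment over all probe sets of each of 7 contrasts and a threshold of 0.05. The script was tested on simulated data. The number of arrays limits precision, and p values measure spread between pools.

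Members, lists, tests and alternatives were chosen with earlier results of these data known. Pathway genes named are up to 4 per list with the smallest unadjusted p over the 4 simple comparisons, and likeness is Pearson r over 12 arrays, 3 genes for each member. Alternatives were an untrended variance, array weights, quantile normalization, a signal filter at the median, the replicate number as a block, only the groups compared, each array left out, the mean of a gene's probe sets, and leaving out 4 arrays of high smooth muscle or acinar signal. The labels name no shared litter or day. Deviations from the group means correlated at 0.193, 0.106 and 0.26 between same-numbered arrays in genotype on control diet, with -0.264 to -0.0109 between other numbers. Within a group the deviations sum to 0, so positive values for same numbers push those for other numbers below 0. The latter are therefore no separate sign of pairing. Numbers were taken as pairs there. This pairing rests on these values alone, and an other-numbered pair reached 0.194 for genotype on quercetin. In the other 3 simple comparisons at least 1 same-numbered pair was below 0, and numbers were not taken as pairs in them. A block fit of the compared groups alone was added after seeing the data. RefSeq promoter entries (GRCm38.p6) matched 5 of the 7 members. The gene deleted in the POR-null line is not analysed here.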

Additional observations from a re-analysis of the deposited data

How the results depend on the processing

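For the 6 measured genes in 7 comparisons, 54 of 804 values under alternatives, in 22 results, turned in sign. The other 750 kept their sign, or the alternative or the main value had a size under 0.005. No alternative brought a member past the threshold (smallest adjusted p by limma 0.145). All-table counts, 0 as reported, became 399 (genotype on control diet) and 2 (quercetin in wild type mice) with array weights, 7 (genotype on control diet) without the 4 arrays of high smooth muscle or acinar signal, and 1 (genotype on quercetin) with only the groups compared. With single arrays left out they ran from 0 to 3 for quercetin in wild type mice, 0 to 41 for genotype on control diet (41 without wild type control array 1), 0 to 2 for the genotype average, and 0 to 1 for quercetin in POR-null mice, genotype on quercetin, the interaction and the quercetin average. The replicate number as a block over all arrays gave 1 call for genotype on quercetin and 0 in the other comparisons (Abcc2 quercetin average 0.44, limma adjusted p = 0.997). The block with only the groups compared, chosen after seeing the data, gave 47 calls for genotype on control diet, where numbers were taken as pairs from the same data, and 1 for genotype on quercetin, and changed no call of a member.

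Turned with array weights were Abcb1a for quercetin in wild type mice (-0.084) and genotype on control diet (-0.044), Abcg2 for quercetin in POR-null mice (0.136) and the interaction (0.371), and Abcc1 for the quercetin average (-0.016). The mean of a gene's probe sets turned Abcb1a (-0.065) and Abcc1 (-0.005) for quercetin in wild type mice and Abcc1 for the quercetin average (-0.072). Without the 4 arrays, Abcb1a turned for quercetin in wild type mice (-0.12), genotype on control diet (-0.043) and the quercetin average (-0.0058), Abcb1b for quercetin in wild type mice (-0.01), Abcc2 for genotype on control diet (-0.133), on quercetin (-0.105) and on average (-0.119), and Abcg2 for genotype on quercetin (0.005) and the interaction (0.198).

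With single arrays left out, Abcb1a ran from -0.188 to 0.192 for quercetin in wild type mice, -0.088 to 0.292 for genotype on control diet and -0.005 to 0.375 for the interaction. Abcc1 ran from -0.107 to 0.033 for quercetin in POR-null mice and -0.023 to 0.047 for the quercetin average. Abcc2 ran from -0.103 to 0.152 for genotype on control diet, -0.103 to 0.252 on quercetin, -0.16 to 0.195 for the interaction and -0.023 to 0.154 for the genotype average. Abcc3 ran from -0.175 to 0.16 for quercetin in POR-null mice, -0.305 to 0.12 for genotype on control diet, -0.038 to 0.297 on quercetin and -0.037 to 0.388 for the interaction. Abcg2 ran from -0.353 to 0.037 and -0.32 to 0.06 for quercetin in POR-null and wild type mice, -0.283 to 0.163 for genotype on control diet, -0.257 to 0.19 for the interaction and -0.188 to 0.035 for the genotype average. The cause was not tested in any of these. The signal filter left out Abcb1b and Abcc2, which have no value there. Precision is limited by 3 arrays a group for every member, and Abcb1b and Abcc2 lay below the lower quartile of signal on all 12 arrays.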
